A study of Homo sapiens with 4 samples.

Results

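Complex I of the mitochondrial respiratory chain was examined through the transcripts whose gene symbol starts with NDUF, in Jurkat cells given hairpins against SLEAR or a control hairpin. Of 16328 transcript rows, 51 met that rule by name alone, with no use of measured values. They were 37 subunits of complex I, 7 assembly factors of the NDUFAF series, NDUFA4 and its relative NDUFA4L2, and 5 rows that encode no separate subunit: 3 antisense RNAs, the pseudogene NDUFAF4P1 and a row of KCTD14 with the readthrough transcript NDUFC2-KCTD14. Jurkat is an established human T cell leukemia line. The 3 libraries named SLEAR shRNA-1, -2 and -3 came from cells transduced with lentivirus that carried hairpins against SLEAR, and the 1 Control library from cells with a control shRNA. Polyadenylated RNA was read by MAPS, a multiplexed method that sequences next to the poly(A) tail, and the deposited values are RPM, reads scaled to library size. Neither the meaning of the numbers 1 to 3 nor separate cultures are stated, so a p-value here covers just the variation among these libraries, possibly technical. Where 3 values follow each other, they are those of SLEAR shRNA-1, shRNA-2 and shRNA-3 in that order.

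Complex I takes electrons from NADH, passes them through a flavin and a chain of iron-sulfur clusters to ubiquinone, and pumps protons across the inner mitochondrial membrane. Its matrix arm holds the NADH and quinone sites, and its membrane arm holds the proton channels. Core subunits do the catalysis, accessory subunits surround and stabilize them, and assembly factors help to build the complex and then leave it. The core subunits of the membrane arm are encoded in mitochondrial DNA, for which the table held 0 rows, so only nuclear genes are described.

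Promoters show a sequence feature shared by several subunits. RefSeq promoters (GRCh38.p14, from 250 bases before to 50 after the transcript start) matched 32 of the 37 subunits and 6 of the 7 assembly factors (NDUFS5, NDUFB5, NDUFB9, NDUFC2 and NDUFAF6 are among those not matched), and were searched on both strands for letters of 4 factors with known sites in nuclear genes for respiration. The YY1 letters ATGGCGGC (GCCGCCAT on the other strand) stood in 9 of 32 subunit promoters (28.1%) and 0 of 6 assembly factor promoters. The share was 3.21% of all 27305 promoters and 7.89% of the 3675 promoters of genes whose log2(RPM + 1) averaged 4 or more over the 4 libraries. The first 50 transcribed bases held the letters in 7 of 32 subunit promoters (21.9%), against 1.83% of all promoters and 5.52% of those of the expressed genes. The letters begin with those of a start codon, and whether they are one was not examined. The 9 matches are shown with 8 bases on either side and the YY1 letters in capitals; NDUFS1 has them as spelled on the other strand.
NDUFS1, chr2:206159416-206159439, minus strand: tagccgagGCCGCCATattgaata
NDUFS3, chr11:47579084-47579107, plus strand: tgagtaacATGGCGGCggcggcgg
NDUFS4, chr5:53560655-53560678, plus strand: gcagcaagATGGCGGCggtgtcaa
NDUFS6, chr5:1801410-1801433, plus strand: ggcgcaaaATGGCGGCggcgatga
NDUFA9, chr12:4649119-4649142, plus strand: gggaaaagATGGCGGCtgccgcac
NDUFA13, chr19:19516231-19516254, plus strand: ctgcgagtATGGCGGCgtcaaagg
NDUFB11, chrX:47144664-47144687, minus strand: catctgtcATGGCGGCtgggctgt
NDUFA7, chr19:8321514-8321537, minus strand: tgtccatgATGGCGGCgcggcggc
NDUFS8, chr11:68030496-68030519, plus strand: aaaccaacATGGCGGCcccctaca

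The NRF1 letters GCATGCGC (GCGCATGC on the other strand) stood in 5 of 32 subunit promoters (15.6%) and 2 of 6 assembly factor promoters (33.3%), against 3.27% of all promoters and 6.34% of those of the 3675 expressed genes. The ETS letters CCGGAAGT (ACTTCCGG) stood in 2 of 32 (6.25%), against 4.44% of all and 11.6% of expressed genes, and the letters GGGCGG of SP factors, read as CCGCCC from the other strand, in 20 of 32 (62.5%), against 44.6% of all and 72.4% of expressed genes. The ETS and SP letters were thus rarer in subunits than in expressed genes, and the YY1 and NRF1 letters more frequent. No share was tested. Matches to different factors overlapped in 0 of the 38 promoters. The 250 bases upstream of the start are shown for NDUFS7 and NDUFS8, core subunits whose values were above Control in every SLEAR shRNA library. NDUFV1, another such core subunit, held the letters of none of the 4 factors. NDUFS3 held the YY1 letters and was not above Control in every SLEAR shRNA library. Capitals mark the NRF1 letters of NDUFS7 and the YY1 letters of NDUFS8.
NDUFS7, chr19:1383657-1383906, plus strand: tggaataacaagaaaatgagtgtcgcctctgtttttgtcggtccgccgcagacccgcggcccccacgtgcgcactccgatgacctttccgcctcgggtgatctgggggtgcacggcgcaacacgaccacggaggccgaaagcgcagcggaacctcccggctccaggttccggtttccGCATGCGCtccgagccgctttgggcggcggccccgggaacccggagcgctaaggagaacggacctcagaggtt
NDUFS8, chr11:68030431-68030680, plus strand: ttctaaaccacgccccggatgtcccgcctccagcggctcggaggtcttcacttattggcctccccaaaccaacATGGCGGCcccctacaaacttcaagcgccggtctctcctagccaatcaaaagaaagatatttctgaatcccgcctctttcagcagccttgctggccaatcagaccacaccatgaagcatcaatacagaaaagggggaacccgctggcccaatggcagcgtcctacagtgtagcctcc

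Depth, estimated from the step between low values, was about 7048626, 7524245 and 4814165 reads for SLEAR shRNA-1, -2 and -3, against 8384897 for Control. SLEAR shRNA-3 stood apart: 42.5% of its rows were listed at 0, against 14.2% to 18.3% in the other libraries. Counts and medians by class are therefore also given without it. All 12 T lineage markers had a row, and 11 of them reached 1 RPM in at least 1 library. The 12 rows summed to 4419 to 4526 RPM with SLEAR shRNA and 4044 RPM in Control. Lists of B cell, myeloid, erythroid, fibroblast and epithelial markers each summed to between 0 and 23.1 RPM, and ITGAM and KRT18 were at 0 everywhere. No row carried the name SLEAR, so the knockdown is not analysed here.

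No complex I subunit passed the test between SLEAR shRNA and Control, and the subunits lay on both sides of Control, more often above it. Summed over 37 subunits, the level was 14201, 14739 and 16220.2 RPM with SLEAR shRNA, against 13174 RPM in Control, so all 3 sums lay above Control. The same held over all 16151 rows, with 884694, 869862 and 877617 RPM, against 842477 RPM in Control. Whether any of the subunit excess goes with the lower total of Control was not tested. Among the 30 subunits whose log2(RPM + 1) averaged 4 or more, 11 were above Control in every SLEAR shRNA library and 1 was below it in every one. Over all 4851 rows at that level the shares were 25.0% above and 25.6% below, and all these counts rest on the same 1 Control. The 11 included NDUFS7, NDUFS8, NDUFV1, NDUFA2, NDUFA12, NDUFS4, NDUFS6, NDUFB9, NDUFB10 and NDUFS5, and the 1 below was NDUFB5. Without SLEAR shRNA-3, 15 of 30 were above Control and 6 below in both other libraries, against 40.9% and 39.9% of all rows. Among subunits at this level with a promoter, the YY1 letters stood in 3 of the 8 that were above Control in all 3 libraries and in 5 of the other 18. In bulk RNA, fewer cells of a type and less RNA per cell cannot be told apart.

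**Figure D1:**
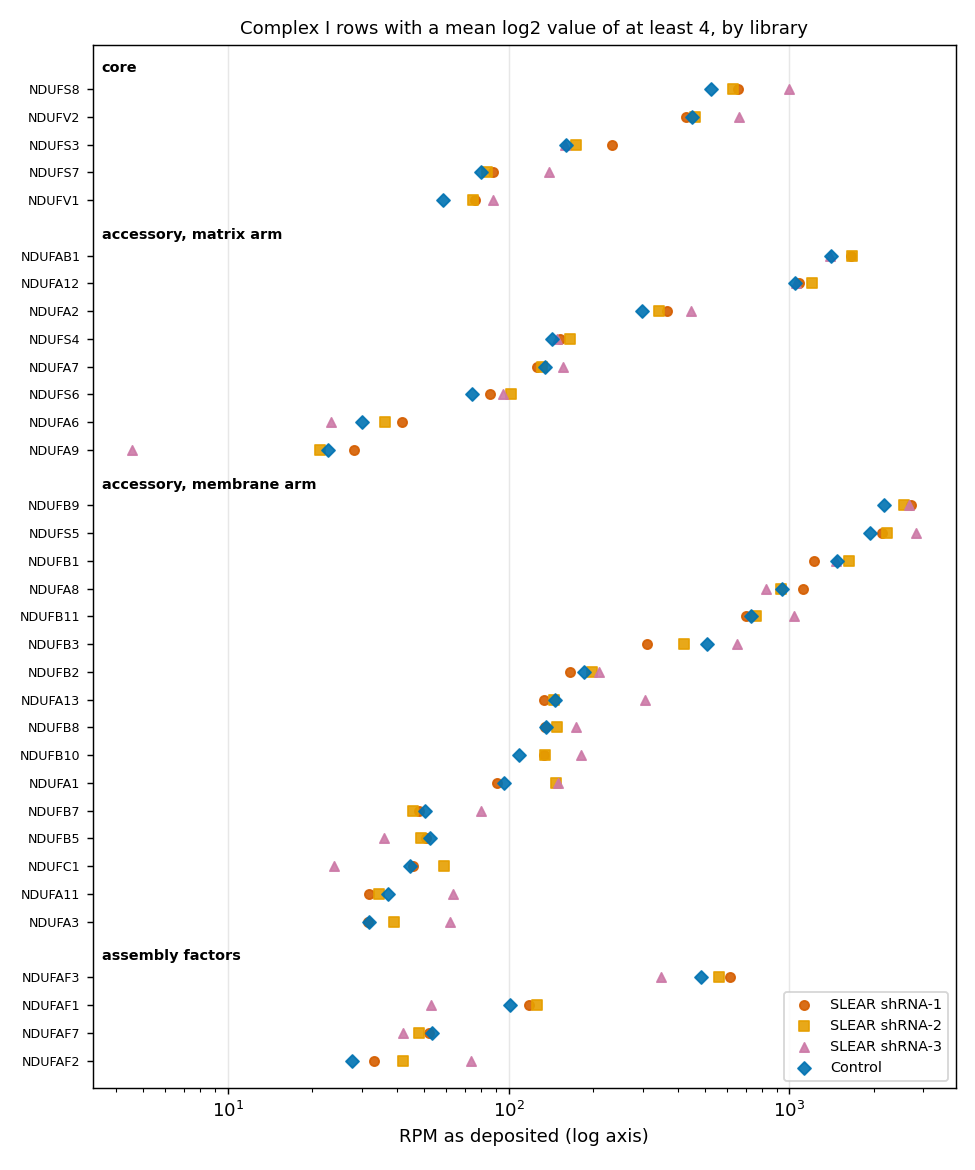
Values in RPM as deposited (log axis) for the 30 subunits and 4 assembly factors whose log2(RPM + 1) averaged 4 or more, with 1 point per library; 33 of the 34 rows are drawn. Control lies inside the range of the SLEAR shRNA libraries for 20 of them, and the triangles of SLEAR shRNA-3 often stand away from the rest.

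Core subunits had the largest share of members above Control in every SLEAR shRNA library among the classes, 4 of 6 tested. Over all 4851 rows at a mean log2 of at least 4 that share was 25.0%, and the difference was not tested. NDUFV1, which binds the flavin and oxidizes NADH, had 75.9, 74.4 and 87.9 RPM with SLEAR shRNA, against 58.4 RPM in Control. All 3 SLEAR shRNA values lay above Control, but the log2 difference of 0.43 ± 0.23 (SE) had a 95% interval of -0.18 to 1.04 (limma-trend, unadjusted p = 0.125, adjusted p = 0.993). NDUFS8, an iron-sulfur protein on the path to ubiquinone, had 654, 629 and 995 RPM with SLEAR shRNA, against 525 RPM in Control. NDUFS7, which carries the iron-sulfur cluster next to ubiquinone, had 88.1, 83.5 and 139 RPM, against 79.5 RPM in Control. For NDUFS8 and NDUFS7 the highest value was that of SLEAR shRNA-3, while the other SLEAR shRNA values were nearer to Control.

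In other core subunits Control lay within the SLEAR shRNA range. NDUFV2, an iron-sulfur partner of NDUFV1, had 428, 461 and 662 RPM, against 448 RPM in Control. NDUFS3, a scaffold of the quinone module, had 233, 174 and 158 RPM, against 161 RPM in Control. NDUFS1, which holds several iron-sulfur clusters, was listed at 0.142, 0 and 0 RPM with SLEAR shRNA and at 0 RPM in Control. The reason for the entries at 0 was not tested, and they say only what the table lists.

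Accessory subunits of the matrix arm had 4 of 8 members above Control in every SLEAR shRNA library, 0 below, and 10 rows in all. Over all 4851 rows at a mean log2 of at least 4 the shares were 25.0% above and 25.6% below, and the difference was not tested. NDUFA2, a small subunit of the NADH module, had 366, 344 and 448 RPM, against 299 RPM in Control, a log2 difference of 0.36 ± 0.23 (SE). NDUFS6, a zinc-binding subunit needed for a stable NADH module, had 85.5, 102 and 95.6 RPM, against 74.1 RPM in Control. Both were above Control in all 3 libraries, with intervals of the log2 difference that held 0. NDUFS4, often mutated in Leigh syndrome, had 152, 166 and 148 RPM, against 143 RPM in Control. NDUFA12, which takes the place of NDUFAF2 late in assembly, had 1084, 1207 and 1056 RPM, against 1050.1 RPM in Control. For these the gap to Control was smaller than the range of the SLEAR shRNA libraries.

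NDUFAB1, the mitochondrial acyl carrier protein, had 1656, 1670.2 and 1395 RPM, against 1409 RPM in Control. SLEAR shRNA-3 lay on the other side of Control from SLEAR shRNA-1 and -2 here, as in further rows: NDUFA6 had 41.7, 36.3 and 23.3 RPM, against 30.2 RPM in Control, and NDUFA7 had 126, 131 and 157 RPM, against 135 RPM. NDUFA9, which sits near the quinone site, had 28.1, 21.3 and 4.57 RPM, against 22.8 RPM in Control. Its value in SLEAR shRNA-3 rested on about 22 reads, and its SE of 1.07 was the largest of the 34 rows. NDUFV3 lay between 0 and 3.83 RPM in every library, and NDUFA5 was at 0.399 RPM in SLEAR shRNA-2 and at 0 elsewhere.

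Accessory subunits of the membrane arm had 3 of 16 members above Control in every SLEAR shRNA library (18.8%) and 1 below (6.25%). Over all 4851 rows at a mean log2 of at least 4 the shares were 25.0% above and 25.6% below. NDUFB9 had 2718, 2560.0 and 2669.8 RPM, against 2179 RPM in Control, so the SLEAR shRNA libraries agreed within a narrow range above it. NDUFS5, in the intermembrane space, had 2137, 2233 and 2828 RPM, against 1935 RPM in Control. NDUFB10 had 133, 134 and 181 RPM, against 109 RPM in Control. On the lower side, NDUFB5 had 50.9, 48.9 and 35.9 RPM, against 52.5 RPM in Control, of which the first was within a few percent of Control.

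The other membrane arm subunits fell on both sides of Control. NDUFA13, also known as GRIM-19, had 134, 145 and 307 RPM, against 147 RPM in Control. NDUFB7 had 47.8, 45.9 and 80.0 RPM, against 50.4 RPM in Control, and NDUFA11 had 31.8, 34.7 and 63.4 RPM, against 37.1 RPM. All of these were below Control in SLEAR shRNA-1 and -2 and above it in SLEAR shRNA-3. NDUFB3 had 311, 421 and 651 RPM, against 508 RPM in Control, the same pattern. On the log2 scale its gap was wider in SLEAR shRNA-1 and -2 and narrower in SLEAR shRNA-3. NDUFC1 went the other way in SLEAR shRNA-3, with 45.7, 59.1 and 23.9 RPM, against 44.7 RPM in Control.

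Values of NDUFA1 were 90.7, 148 and 149.6 RPM, against 96.7 RPM in Control, and those of NDUFA3 were 31.6, 39.2 and 62.1 RPM, against 32.0 RPM. In NDUFB11 they were 699.8, 758 and 1041 RPM, against 732 RPM in Control, and in NDUFB8 135, 149 and 174 RPM, against 136 RPM. SLEAR shRNA-1 was below Control in each of these, and SLEAR shRNA-3 was highest. NDUFB1 (1224, 1629 and 1464 RPM, against 1480.2 RPM in Control), NDUFA8 (1117, 937 and 828 RPM, against 939 RPM) and NDUFB2 (165, 198 and 209.8 RPM, against 186 RPM) had Control inside the SLEAR shRNA range. NDUFB4, NDUFB6, NDUFA10 and NDUFC2 stayed at or below 11.3 RPM in every library, and NDUFB4, NDUFB6 and NDUFC2 were lowest in SLEAR shRNA-3, at 2.05, 0 and 0 RPM.

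Of the 4 assembly factors at a mean log2 of at least 4, 1 lay above Control in every SLEAR shRNA library and 1 below. Over all 4851 rows at that level the shares were 25.0% above and 25.6% below, so these counts are near those of all rows. NDUFAF2, a relative of NDUFA12 that holds its place during assembly, had 33.1, 42.1 and 73.7 RPM, against 27.8 RPM in Control, and was the 1 above Control in all 3 (log2 difference 0.73 ± 0.52, SE, limma-trend adjusted p = 0.993). Without SLEAR shRNA-3, its highest library, the difference was 0.41. NDUFAF3, which with NDUFAF4 builds the quinone module, had 615, 563 and 349.6 RPM, against 483 RPM in Control. NDUFAF1, which works on the membrane arm, had 118, 126 and 52.8 RPM, against 101 RPM in Control. Both were above Control in SLEAR shRNA-1 and -2 and below it in SLEAR shRNA-3. NDUFAF7, a mitochondrial methyltransferase, had 52.1, 48.1 and 42.2 RPM, against 53.4 RPM in Control, below it in all 3. NDUFAF4 had 1.42, 1.99 and 0 RPM, against 4.29 RPM in Control, and NDUFAF5 and NDUFAF6 did not exceed 1.06 RPM.

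NDUFA4, which is now counted with cytochrome c oxidase despite its name, was at 0.133 RPM in SLEAR shRNA-2 and listed at 0 in the other libraries, Control included. NDUFA4L2 had 0.709, 1.33 and 3.32 RPM, against 2.39 RPM in Control. Among the antisense rows, NDUFV2-AS1 had 3.55, 0.782 and 2.44 RPM, against 3.68 RPM in Control, and NDUFB2-AS1 and NDUFA6-AS1 did not exceed 1.14 RPM. No source used here states whether counting used strand, so reads of these rows and of their partners cannot be told apart. NDUFAF4P1 and the KCTD14 row were at or below 0.426 RPM.

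Reads of some rows may be shared with copies. GENCODE 29 names 30 pseudogenes for 15 of the 34 rows at a mean log2 of at least 4, and 29 for 4 of the 12 lower rows of subunits, assembly factors, NDUFA4 and NDUFA4L2, with 12 each for NDUFA5 and NDUFB4 and 4 for NDUFAF4. NDUFS5 has 6 and NDUFA3 has 5. Exons of 21 of the 34 overlap those of another gene on either strand. No source used here states how the authors divided shared reads, so the values of these rows are uncertain.

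Set side by side, subunits and assembly factors changed order depending on the library. The median log2 differences of the 30 subunits from Control were 0.06, 0.17 and 0.36, and those of the 4 assembly factors were 0.23, 0.27 and -0.40. Over all 4851 rows they were 0.02, -0.01 and -0.03. The assembly factor median was above the subunit median in SLEAR shRNA-1 and -2 and below it in SLEAR shRNA-3. Over the tested rows (35 subunits, 6 assembly factors) the medians of the fitted differences were 0.15 and -0.05, and without SLEAR shRNA-3 they were 0.14 and 0.27, so the order of the classes turned without that library. It also turned with array weights, which gave that library little weight (subunit minus assembly factor median -0.08, against 0.20 with equal weights). With 1 Control an exact permutation test over libraries cannot go below a one-sided p of 0.25, and none was run.

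Within the subunits, median log2 differences were 0.34, 0.19 and 0.57 for the 6 core subunits, 0.22, 0.21 and 0.03 for the 8 matrix arm accessory subunits, and -0.05, 0.11 and 0.43 for the 16 of the membrane arm. The medians of the core and matrix arm classes were above 0 in all 3 libraries, and that of the membrane arm was below 0 in SLEAR shRNA-1. Without SLEAR shRNA-3, 5 of 6 core subunits were above Control in both other libraries and 0 below, 6 and 1 of the 8 in the matrix arm, 4 and 5 of the 16 in the membrane arm, and 3 and 1 of the 4 assembly factors. Over all 4851 rows at a mean log2 of at least 4 the shares in those libraries were 40.9% above and 39.9% below. No difference between classes was tested, since members are not replicates.

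**Figure D2:**
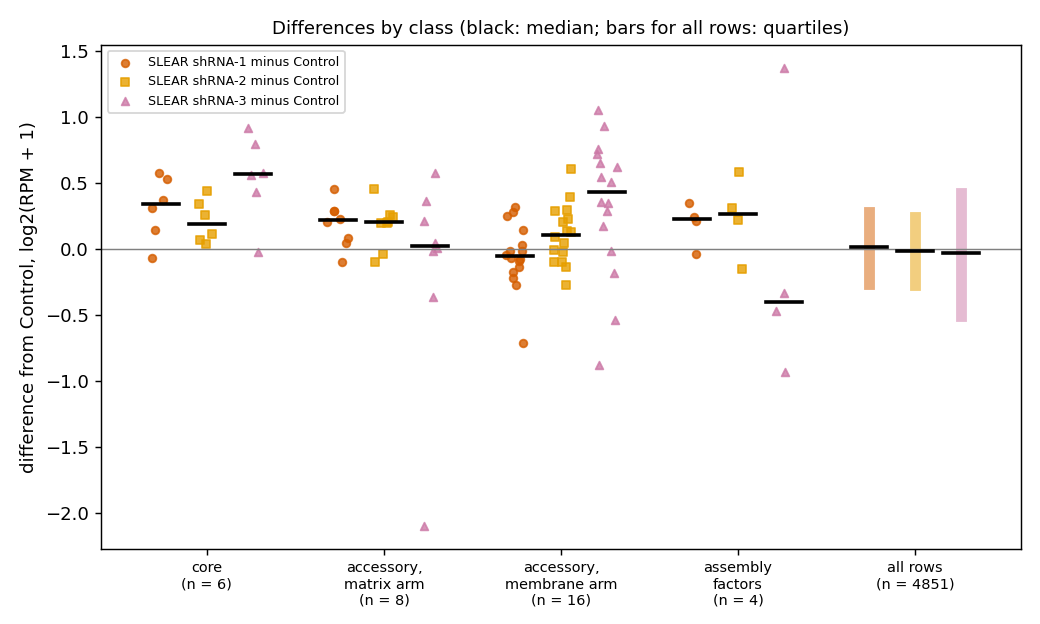
Differences from Control on the log2(RPM + 1) scale (y axis) by class of gene (x axis) for rows averaging 4 or more on that scale, with points for rows, black lines for medians and bars from the lower to the upper quartile of all 4851 rows. The assembly factor median is above 0 in SLEAR shRNA-1 (0.23) and shRNA-2 (0.27), and at -0.40 in shRNA-3.

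SLEAR shRNA was compared with Control by limma-trend over all 12350 rows that reached 1 RPM in any library. Of the 44 NDUF rows tested, 0 were higher and 0 lower at an adjusted p under 0.05, as were 0% of all rows in either direction. At an unadjusted p under 0.05 there were also 0 NDUF rows, against 0.745% of all rows higher and 1.94% lower. Among the 34 rows at a mean log2 of at least 4, log2 differences ran from -0.63 to 0.73 with SEs of 0.19 to 1.07, and all 34 intervals held 0. For 14 of the 34 the 95% interval lay within a 2-fold change either way, so for these rows larger changes lay outside the interval. The other 7 NDUF rows never reached 1 RPM and were not tested.

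**Figure D3:**
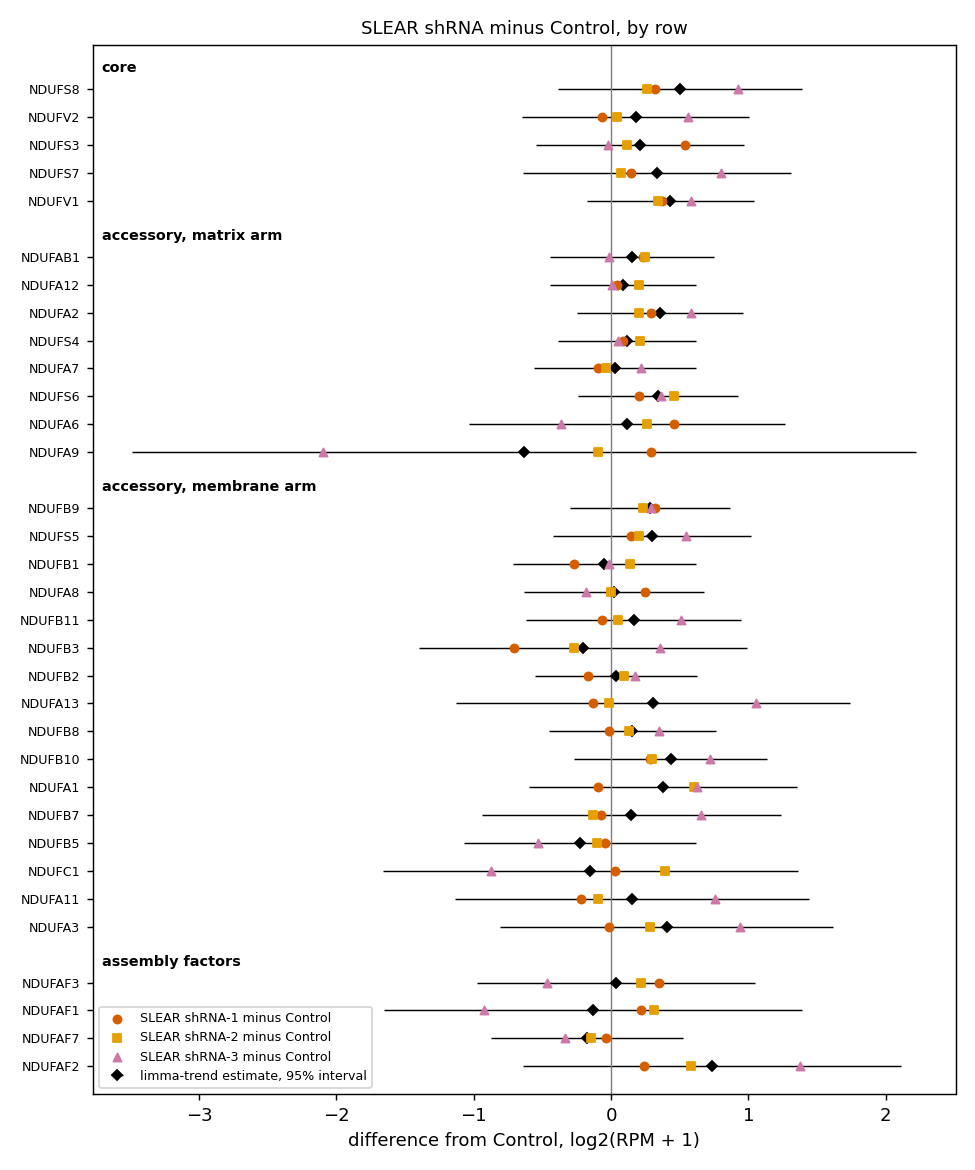
Log2(RPM + 1) difference from Control (x axis) for 33 of the 34 rows, with coloured points for each SLEAR shRNA library and a black diamond with a bar for the limma-trend estimate and its 95% interval. Every interval drawn crosses 0, that of NDUFV1 running from -0.18 to 1.04.

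Without SLEAR shRNA-3, among rows at a mean log2 of at least 4, limma-trend called 1 of the 34 rows higher and 1 lower, against 7.11% and 7.26% of all 4851 rows. NDUFB3 was lower by a log2 difference of -0.49 ± 0.14 (SE; adjusted p = 0.00679), but was above Control in SLEAR shRNA-3. Without SLEAR shRNA-3 but with the usual minimum of 1 RPM, the same difference had an adjusted p of 0.419, and 0 of 12350 rows were called, with a smallest adjusted p of 0.368. The calls thus need the higher minimum as well as the missing library. The shares of called rows were below those among all rows. This fit has 1 residual degree of freedom and pools the spread of all rows completely, so the gap of 311 to 421 RPM between SLEAR shRNA-1 and -2 for NDUFB3 did not count against it.

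SLEAR shRNA-3 was outside the range of the other 3 libraries in 28 of the 34 rows, highest in 18 and lowest in 10, against 76.6% of all 4851 rows. The median gap between SLEAR shRNA-1 and -2 was 0.12 on the log2 scale, and the median range over the 3 SLEAR shRNA libraries was 0.52. Over all 4851 rows the same medians were 0.15 and 0.56. Among subunits, the place of SLEAR shRNA-3 moved with transcript GC content. Across the 29 subunits with a GC value, Spearman's rho between GC content and the difference of SLEAR shRNA-3 from the mean of SLEAR shRNA-1 and -2 was 0.58, against 0.18 across 4750 rows of all genes. With the assembly factors included, rho was 0.45 across 33 rows. These rows share their libraries, and genes are not independent replicates. In the 9 subunits of highest GC (56.4% to 66.5%) SLEAR shRNA-3 was above Control in 9, with median log2 differences of -0.014, 0.068 and 0.76 across the libraries. In the 9 of lowest GC (39.8% to 49.5%) it was above Control in 5, with medians of 0.03, 0.14 and 0.0083. Over all 4851 rows, whatever their GC content, SLEAR shRNA-3 was above Control in 48.3%. For the mean of SLEAR shRNA-1 and -2 minus Control, rho was 0.06 across subunits and 0.33 across all rows. The part of GC content in the values above was not tested.

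**Figure D4:**
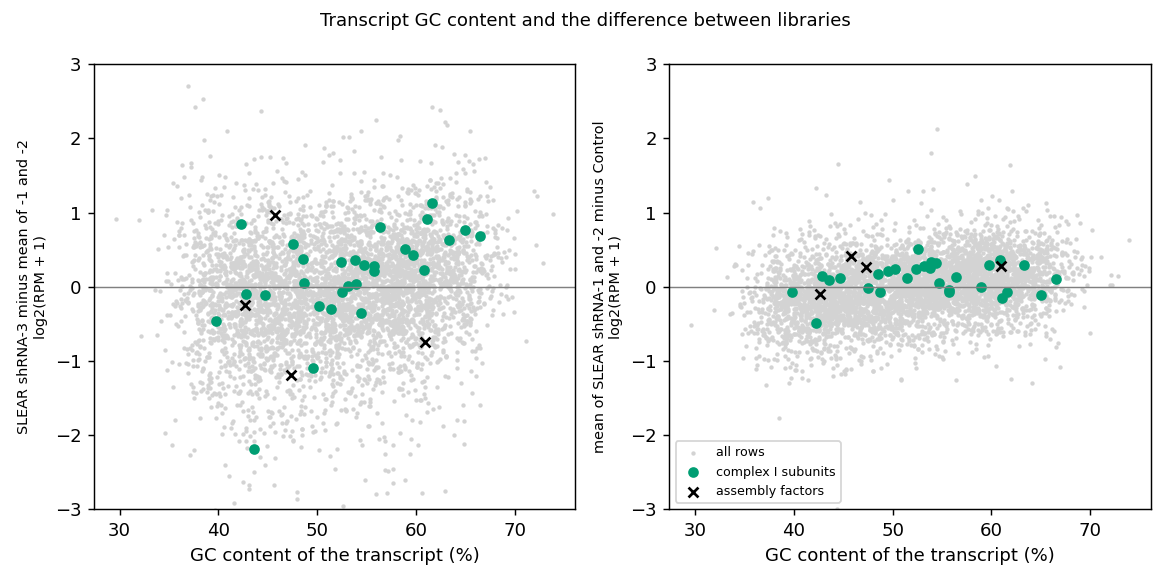
GC content of the transcript in percent (x axes) against the log2(RPM + 1) difference of SLEAR shRNA-3 from the mean of SLEAR shRNA-1 and -2 (left) and of that mean from Control (right), for rows averaging 4 or more on that scale, with 17 grey rows beyond the left axis. Subunits (green) rise with GC content on the left (rho 0.58) and not on the right (rho 0.06).

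Other genes of the pathway were read from lists of assembly factors without an NDUF name (16 rows tested), complex II (8), complex III (15), complex IV (21), complex V (19), ubiquinone synthesis and NADH supply (20) and mitochondrial biogenesis (14). By limma-trend over all rows 0 passed in each list. Without SLEAR shRNA-3 among rows at a mean log2 of at least 4, limma-trend called 1 of 10 rows higher and 1 lower in the assembly list, 0 and 0 of 3 in complex II, 1 and 1 of 8 in complex III, 4 and 1 of 16 in complex IV, and 2 and 1 of 16 in complex V. It called 1 of 12 higher and 0 lower in ubiquinone synthesis and NADH supply, and 1 of 4 and 0 in biogenesis. Over all 4851 rows this fit called 7.11% higher and 7.26% lower, and 0 rows passed without SLEAR shRNA-3 at the usual minimum of 1 RPM. NUBPL, which delivers iron-sulfur clusters to complex I and was singled out after its values were seen, had 44.4, 45.3 and 6.85 RPM, against 29.2 RPM in Control (limma-trend adjusted p = 0.0488 in that fit). OCIAD2 had 48.8, 55.99 and 88.9 RPM, against 85.3 RPM in Control (adjusted p = 0.00685 in that fit). In SLEAR shRNA-3 both lay on the other side of Control. TMEM126B, a factor of the membrane arm, had 44.4, 35.6 and 27.6 RPM, against 46.2 RPM in Control, below it in all 3.

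Of the other complexes, complex IV had 6 of 16 rows above Control in every SLEAR shRNA library and 1 below, complex V 5 of 16 and 3, complex III 1 of 8 and 1, and complex II 1 of 3 and 2. Complex I, with 11 of 30 subunits above and 1 below, had a share above Control (36.7%) close to that of complex IV. Over all 4851 rows at a mean log2 of at least 4 the shares were 25.0% above and 25.6% below. At an unadjusted p under 0.05 there were 2 of the 21 tested rows of complex IV and 0 in the other lists. Over all 12350 tested rows the shares at that limit were 0.745% higher and 1.94% lower. COX4I1, a nuclear subunit of complex IV, had 1155, 1263 and 1414 RPM, against 774 RPM in Control (limma-trend log2 difference 0.72 ± 0.21, SE, unadjusted p = 0.0246, adjusted p = 0.993). Its adjusted p was 1.35e-05 without SLEAR shRNA-3 among rows at a mean log2 of at least 4. COX20, an assembly factor of complex IV, had 27.9, 33.6 and 19.7 RPM, against 57.6 RPM in Control (limma-trend unadjusted p = 0.0476, adjusted p = 0.993, and 0.00205 in the fit just named). Genes of ubiquinone synthesis and NADH supply had 6 of 12 above and 0 below, among them IDH3B, of the NADH-producing isocitrate dehydrogenase, at 146, 150.0 and 149 RPM, against 119 RPM in Control. PPRC1, a coactivator of mitochondrial biogenesis, had 25.3, 31.6 and 26.4 RPM, against 16.0 RPM in Control (limma-trend adjusted p = 0.993, and 0.0302 in that same fit). These lists share their libraries and their 1 Control with complex I, so none of these counts is separate evidence.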

How the data were processed

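Polyadenylated RNA of Jurkat cells was measured in 3 SLEAR shRNA libraries and 1 Control library. The values deposited by the authors are RPM; per the submitters' processing notes, FastQC, Bowtie2 and SAMtools were used with hg19 (versions not given). No source used here states how reads were assigned to rows. The columns sum to 85.3% (Control) to 89.5% (SLEAR shRNA-1) of a full RPM total, so part of each library lies outside these rows. Of values above 0, 96.4% to 96.9% were whole multiples of 1 step within 0.05 reads, and some were below 1 read, so values were not treated as counts. By counting error alone, 3 reads (0.358 to 0.623 RPM) bound a value of 0; no molecular identifiers are stated.

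Identical rows averaging 1 RPM or more were collapsed, leaving 16151 rows, with no NDUF row affected. Limma-trend (limma 3.58.1, R 4.3.3) was fitted on log2(RPM + 1) over 12350 rows with Benjamini-Hochberg adjustment at 0.05; the 1 Control was assumed to vary like the SLEAR shRNA libraries, and differences of low rows are understated. The code was tested on simulated data. Every NDUF row could be named, with values in each library for those at a mean log2 of at least 4; of each other list, the 3 rows at that level with the smallest unadjusted p. Alternatives were other pseudocounts, filters, scalings, weights, limma-voom and leaving out libraries. Members, lists and alternatives were chosen with earlier results of these data known. Values of some rows are not reported here. GC content came from GENCODE 29 transcripts through RefSeq names. Coordinates are those of the promoter table's build, not of hg19.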

Additional observations from a re-analysis of the deposited data

How the results depend on the processing

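The comparison rests on 1 Control library, and SLEAR shRNA-3 is the shallowest library. At least about 22 reads lay behind every value of the 34 rows. No paired analysis was possible because there is only 1 Control library, so the groups share fewer than 2 numbers.

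Pseudocounts of 0.1 and 5, no filter, a minimum mean log2 value of 4, median-of-ratios size factors and limma-voom on estimated reads left the direction of all 34 rows and the NDUF counts of 0 as they were. Without a filter 1 row of all genes was higher and 376 lower, with 0 NDUF rows among them. With SLEAR shRNA-1 and -2 only and a minimum mean log2 of 4, 345 were higher and 352 lower, with 1 NDUF row each way. In that fit these log2 differences turned: NDUFV2 -0.014, NDUFA7 -0.068, NDUFA9 0.098, NDUFB11 -0.0074, NDUFB2 -0.037, NDUFA13 -0.075, NDUFB7 -0.11, NDUFC1 0.21, NDUFA11 -0.16 and NDUFAF1 0.27. With array weights (SLEAR shRNA-3 at 0.142) NDUFA7 turned to -0.051, NDUFA13 to -0.025, NDUFB7 to -0.090, NDUFC1 to 0.23, NDUFA11 to -0.11 and NDUFAF1 to 0.24. Counted in SLEAR shRNA-1 and -2 alone, an alternative added after the data were seen, 3 of 4 assembly factors and not 1 were above Control. Over all 4851 rows at a mean log2 of at least 4 that share was 40.9%. Leaving out each SLEAR shRNA library in turn kept 0 NDUF rows called and turned the direction of 15 rows, whose log2 differences ran from the lowest to the highest as follows: NDUFV2 -0.014 to 0.30, NDUFA7 -0.068 to 0.088, NDUFA6 -0.052 to 0.36, NDUFA9 -1.09 to 0.098, NDUFB1 -0.14 to 0.061, NDUFA8 -0.092 to 0.12, NDUFB11 -0.0074 to 0.28, NDUFB3 -0.49 to 0.043, NDUFB2 -0.037 to 0.13, NDUFA13 -0.075 to 0.52, NDUFB7 -0.11 to 0.29, NDUFC1 -0.42 to 0.21, NDUFA11 -0.16 to 0.33, NDUFAF3 -0.12 to 0.28 and NDUFAF1 -0.35 to 0.27. Without SLEAR shRNA-3, 24 of the 34 log2 differences turned or moved by over 1.5 times. The subunit minus assembly factor median ran from -0.14 without SLEAR shRNA-3 to 0.42 without SLEAR shRNA-1. The cause of these changes was not tested.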
